A study of Drosophila melanogaster with 21 samples.

Results

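Complex I, or NADH:ubiquinone oxidoreductase, is the enzyme of the inner mitochondrial membrane that takes electrons from NADH, passes them to ubiquinone and pumps protons. Its subunits are grouped by position. The N module binds NADH, the Q module joins it to the site where ubiquinone is reduced, and the P module lies in the membrane and moves protons. A small set of core subunits carries the flavin, the iron-sulfur clusters and the ubiquinone site, and the many accessory subunits build, hold and stabilise the enzyme. Complex IV, the cytochrome c oxidase to which the targeted gene CoVa belongs, works at the far end of the same electron transport chain.

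The transcripts of 32 nuclear genes of complex I were followed in Drosophila S2 cells, an established line from embryos with traits of haemocytes. The members were all genes whose symbol in the array annotation starts with ND-, out of 11981 genes with a probeset of their own, and each was read through the probeset of highest mean signal. RefSeq lists 40 genes of that name, and the other 8 (ND-23, ND-24, ND-30, ND-49, ND-49L, ND-AGGG, ND-B15 and ND-MWFE) were not analysed here, nor were the ND genes of the mitochondrial genome. Of the 32 members, 25 had a signal of at least 100 on all 20 arrays compared, with means between 1547 and 10988, and 27 passed the filter of 100 on at least 3 arrays and were tested. The label of the group, complex I subunits, holds for these genes by annotation, with reservations. ND-MLRQ is named after a subunit that is now placed in complex IV in mammals. Another 5 members are paralogues, which carry the symbol of a subunit with the suffix L. Of these, ND-20L and ND-B14.5AL are among the 27 tested and enter the counts and medians of the members.

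Interfering RNA was brought in by calcium phosphate transfection, specific for CoVa on 10 arrays and for GFP, a sequence foreign to the fly, on another 10, in 3 time courses of the same line. In experiment 1 each condition was sampled at 48 and 168 hr after transfection, and in experiments 2 and 3 at 72, 96, 120 and 168 hr. This gave 10 matched pairs of a CoVa and a GFP array. Untransfected cells gave 1 array, at 48 hr, which was left out of the tests. Values are linear signal intensities without a depth, so the number of arrays limits their precision.

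The CoVa transcript (symbol COX5A on the array) averaged 4177 ± 2134 in CoVa RNAi cells and 8176 ± 695 in GFP RNAi cells (SD, n = 10 each), which is −1.17 as log2 fold change (limma, SE 0.28, adjusted p = 0.00602). It had not fallen in the 48 hr pair, with 8364 in CoVa RNAi and 7336 in GFP RNAi. Its mean log2 difference over the pairs was −0.84 in experiment 1, −1.90 in experiment 2 and −0.62 in experiment 3. Of 11 markers of plasmatocytes and S2 cells, 8 had a mean of at least 100, among them srp, Pxn and eater, while Hml, Ppn and NimC1 did not. Single arrays of eater ran between 9.6 and 726 in CoVa RNAi and between 9.6 and 496 in GFP RNAi. Those of Pxn ran between 50.4 and 2004 in CoVa RNAi and between 267 and 2253 in GFP RNAi. The summed signal of the 11 markers ran between 10211 and 15485 in CoVa RNAi and between 10107 and 17306 in GFP RNAi. Pvr alone had means of 6079 in CoVa RNAi and 7693 in GFP RNAi. Of the 8 markers with a mean of at least 100, 0 rose and 2 fell over all arrays, against 11.3% of all tested probesets higher and 6.47% lower. The 2 were Col4a1 (log2 fold change −0.997, adjusted p = 0.00223 by limma) and Pvr (−0.35, adjusted p = 0.00594). At 168 hr the same 2 fell and crq rose, against 9.14% of all tested probesets higher and 7.44% lower. Of 3 lamellocyte markers, PPO3 rose (0.69, adjusted p = 0.0313 by limma), mys did not pass (0.10) and atilla missed the filter. The signal of atilla averaged 19.4 in CoVa RNAi and 27.9 in GFP RNAi, and was lower in 8 of 10 pairs. The part of the plasmatocyte and lamellocyte markers in the values of complex I was not tested. RNA of a whole culture cannot tell apart fewer cells of one kind from less RNA per cell.

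Over all arrays, most subunits of complex I stood close to their level in control cells, and 5 of the 27 passed the test. ND-B14, ND-18 and ND-B14.5A fell, and ND-ACP and ND-B16.6 rose. These 5 are 18.5% of the members tested, against 17.8% of all 9858 probesets tested, so the share of members called lay near the background. The higher calls were 2 of 27 members, against 11.3% of all probesets, and the lower calls 3 of 27, against 6.47%. With quantile normalization the members gave 1 higher and 3 lower calls, and with every array scaled to a common median 0 higher and 2 lower. Among all probesets 63.6% of the calls were higher, and with quantile normalization 51.8%.

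The fold changes of the members were narrow. Their median log2 fold change was −0.05, against 0.04 for all probesets tested, with 12 members above 0 and 15 below. The absolute log2 fold change had a median of 0.0768 over the members and 0.139 over all probesets, and the log2 fold changes had an SD of 0.164 over the members and 0.293 over all probesets. Most members lie high in the range of signals, and the part of signal level in this difference was not tested.

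**Figure D1:**
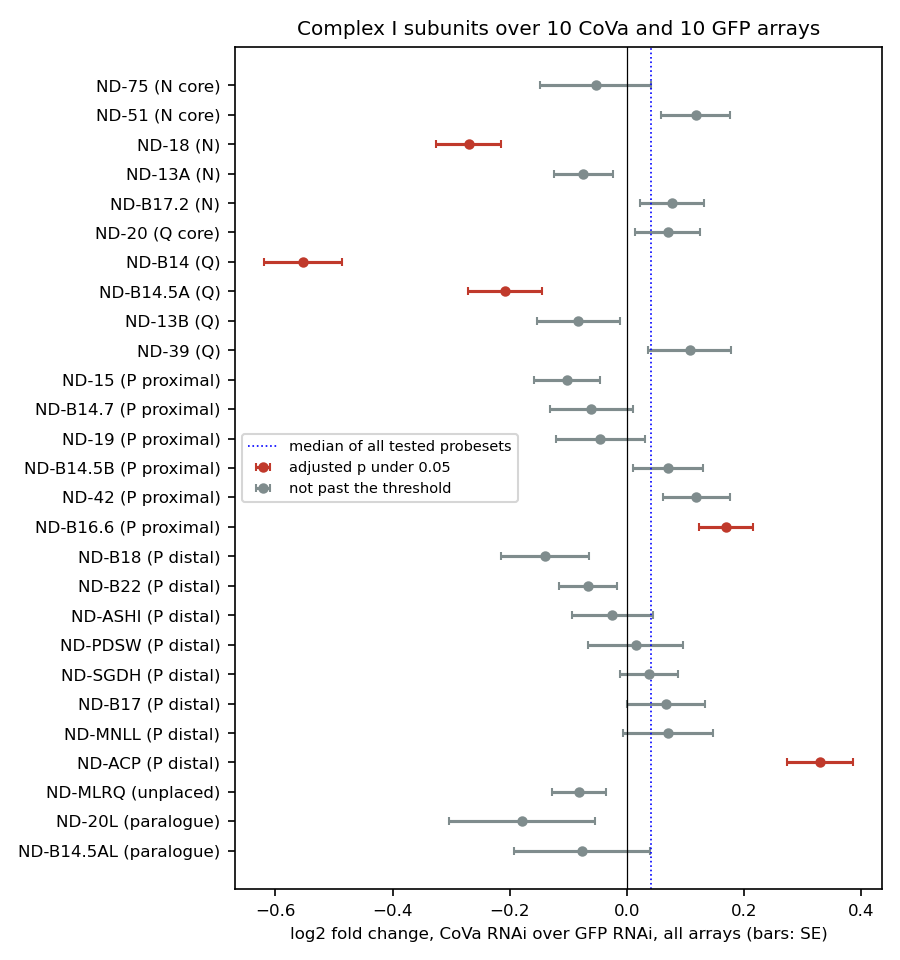
Log2 fold change of CoVa RNAi over GFP RNAi (x axis) for the 27 tested complex I genes, grouped by module, from 10 arrays of each condition. Points are limma estimates, bars are standard errors and the dotted line is the median of all tested probesets at 0.04. ND-B14 lies at −0.55 and ND-ACP at 0.33, and the members not past the threshold lie between −0.18 and 0.12.

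The largest difference among the members was that of ND-B14, the fly counterpart of NDUFA6, an accessory subunit of the Q module and a member of the LYR family of small mitochondrial proteins. Its signal ran between 1874 and 2755 with a median of 2278 in CoVa RNAi, and between 3042 and 3825 with a median of 3364 in GFP RNAi. All 10 CoVa arrays lay below all 10 GFP arrays. The means were 2307 ± 262 in CoVa RNAi and 3388 ± 266 in GFP RNAi (SD, n = 10 each), which is −0.55 as log2 fold change (limma, SE 0.07, adjusted p = 3.2e-05), and 1.98% of all tested probesets stood as low or lower. Only 1.03% of all tested probesets had arrays of both conditions that did not overlap, and 2 members did, ND-B14 and ND-18.

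At 48 and 72 hr ND-B14 had lower signals in CoVa RNAi, but the single 48 hr pair allows no test and the test at 72 hr was not passed. In the 48 hr pair it had 2755 in CoVa RNAi and 3171 in GFP RNAi, a log2 difference of −0.20 with no replicate, while CoVa itself stood at a difference of 0.19. At 72 hr it had 2529 and 2167 in CoVa RNAi, against 3583 and 3059 in GFP RNAi, in experiments 2 and 3 (adjusted p = 1 by limma, and 0.0884 with the matched pairs as a block). At 168 hr it had 2582, 2240 and 1874 in CoVa RNAi, against 3825, 3660 and 3042 in GFP RNAi, in experiments 1, 2 and 3. In 9 of the 10 pairs ND-B14 had the lowest difference of all 27 members, with the 48 hr pair as the exception.

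The ND-B14 difference can be set beside the depth of the CoVa knockdown in each time course. The mean log2 difference was −0.38 over the 2 pairs of experiment 1, −0.62 over the 4 pairs of experiment 2 and −0.57 over the 4 pairs of experiment 3. At 168 hr ND-B14 differed by −0.70 in experiment 2, where CoVa differed by −3.43, and by −0.69 in experiment 3, where CoVa differed by −0.87. Over the 4 times the experiments share, experiment 2 minus experiment 3 was −0.04 for ND-B14 (SE 0.07, adjusted p = 0.812 by limma) and −1.28 for CoVa (SE 0.31, adjusted p = 0.262). The 4 times of an experiment come from the same time course, so they cannot be taken as independent cultures. A missed threshold does not show that the experiments acted alike.

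**Figure D2:**
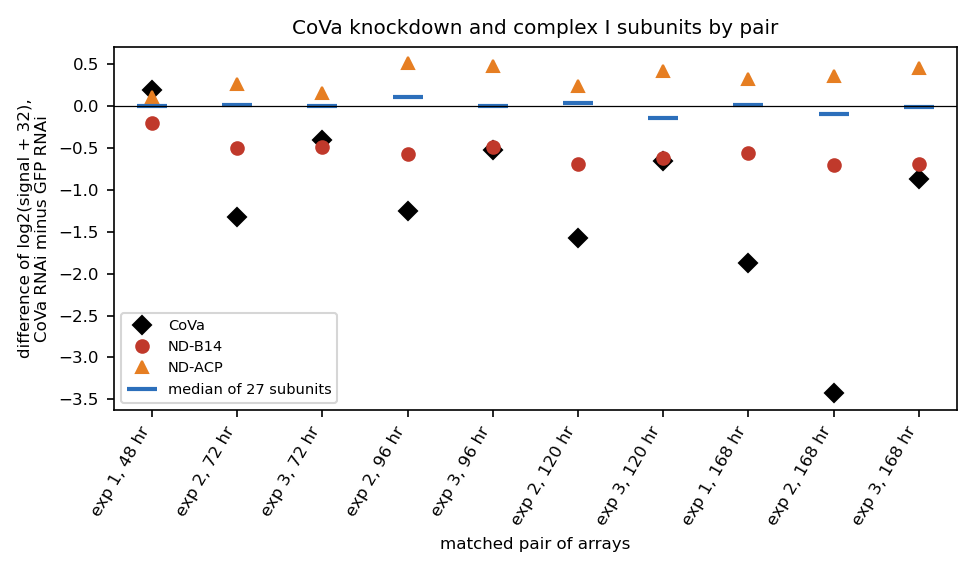
Log2 difference of CoVa RNAi minus GFP RNAi (y axis, signal plus 32) in each of the 10 matched pairs (x axis, by time and experiment). Diamonds are CoVa, circles ND-B14, triangles ND-ACP and bars the median of the 27 tested members. CoVa ran between 0.19 and −3.43, while ND-B14 lay between −0.20 and −0.70 and ND-ACP between 0.11 and 0.51.

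ND-18, the counterpart of NDUFS4, is an accessory subunit that holds the N module to the rest of the enzyme. Its signal ran between 1216 and 1541 with a median of 1446 in CoVa RNAi, and between 1543 and 1890 with a median of 1675 in GFP RNAi. The ranges did not overlap, although only just. The means were 1401 ± 122 in CoVa RNAi and 1694 ± 112 in GFP RNAi (SD, n = 10 each), which is −0.27 as log2 fold change (limma, SE 0.06, adjusted p = 0.00223), and it was lower in 10 of 10 pairs. Without experiment 2 the log2 fold change was −0.31 with an adjusted p of 0.0523, and without the 168 hr arrays −0.20 with an adjusted p of 0.119. In those settings 3.59% and 3.35% of all probesets passed, against 17.8% with all arrays. The mean log2 difference was −0.24 in experiment 1, −0.22 in experiment 2 and −0.34 in experiment 3.

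ND-B14.5A, the counterpart of NDUFA7, is another accessory subunit of the Q module. Its signal ran between 3143 and 4610 with a median of 3764 in CoVa RNAi, and between 3813 and 4779 with a median of 4441 in GFP RNAi. The arrays overlapped, and 9 of 10 pairs were lower in CoVa RNAi, with the experiment 2 pair at 96 hr as the exception. The means were 3771 ± 398 in CoVa RNAi and 4352 ± 343 in GFP RNAi (SD, n = 10 each), which is −0.21 as log2 fold change (limma, SE 0.06, adjusted p = 0.0275). This call was lost when any of the 3 experiments was left out (adjusted p = 0.0713 without experiment 1, 0.146 without experiment 2 and 0.128 without experiment 3), and its mean log2 difference was −0.20, −0.21 and −0.21 in experiments 1, 2 and 3. Without the 168 hr arrays the log2 fold change was −0.12 (adjusted p = 0.532), with no filter it was −0.21 (adjusted p = 0.0572) and with a common median −0.26 (adjusted p = 0.111).

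ND-ACP, the counterpart of NDUFAB1, is the mitochondrial acyl carrier protein. It serves fatty acid and lipoic acid synthesis in the matrix and, in mammals, sits in complex I bound to the LYR subunits NDUFA6 and NDUFB9, whose fly counterparts are ND-B14 and ND-B22. Its signal ran between 5706 and 7307 with a median of 6391 in CoVa RNAi, and between 4608 and 5843 with a median of 5191 in GFP RNAi. The arrays overlapped slightly, and it was higher in CoVa RNAi in 10 of 10 pairs. The means were 6544 ± 557 in CoVa RNAi and 5198 ± 367 in GFP RNAi (SD, n = 10 each), which is 0.33 as log2 fold change (limma, SE 0.06, adjusted p = 0.000507). Without experiment 2 the log2 fold change was 0.32 with an adjusted p of 0.0561, with a common median it was 0.28 with an adjusted p of 0.0756, and its mean log2 difference was 0.22, 0.34 and 0.38 in experiments 1, 2 and 3. ND-B22, a distal P subunit, had 5290 ± 321 in CoVa RNAi and 5544 ± 380 in GFP RNAi (SD, n = 10 each) and did not pass (log2 fold change −0.07, SE 0.05, adjusted p = 0.408).

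The array reads ND-ACP, which has several transcript forms, through 3 probesets, and their fold changes over all arrays had the same sign and unlike sizes. The strongest had the fold change of 0.33 on the log2 scale. The middle probeset had 5413 ± 281 in CoVa RNAi and 4958 ± 92.8 in GFP RNAi (SD, n = 10 each), which is 0.12 as log2 fold change (limma, SE 0.04, adjusted p = 0.0297), and was higher in 9 of 10 pairs. The weakest had 3951 ± 465 in CoVa RNAi and 3753 ± 379 in GFP RNAi (SD, n = 10 each), which is 0.07 as log2 fold change (limma, SE 0.07, adjusted p = 0.583), and was higher in 8 of 10 pairs. In each of the 10 pairs the strongest probeset had the highest difference of the 3. With the mean of the 3 probesets in place of the strongest, the log2 fold change over all arrays was 0.17 and passed, while those at 96 hr (0.28, adjusted p = 0.369) and 168 hr (0.21, adjusted p = 0.129) did not. Which transcript form each probeset reads was not tested.

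**Figure D3:**
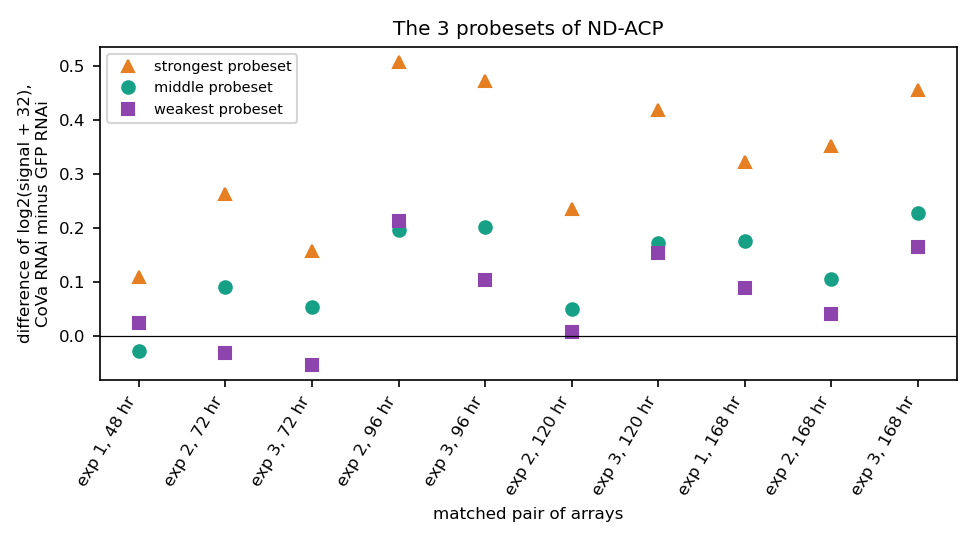
Log2 difference of CoVa RNAi minus GFP RNAi (y axis, signal plus 32) for the 3 probesets of ND-ACP in each of the 10 matched pairs (x axis). The strongest probeset lay above the other 2 in every pair, between 0.11 and 0.51, and the other 2 lay between −0.05 and 0.23.

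ND-B16.6, the counterpart of NDUFA13, is an accessory subunit that anchors the Q module to the membrane arm. Its signal ran between 2606 and 3038 with a median of 2877 in CoVa RNAi, and between 2249 and 2835 with a median of 2514 in GFP RNAi. The arrays overlapped, and experiment 3 ran higher than experiment 2 in both conditions at 72 and 96 hr, but the CoVa array was higher in 10 of 10 pairs. The means were 2868 ± 131 in CoVa RNAi and 2550 ± 170 in GFP RNAi (SD, n = 10 each), which is 0.17 as log2 fold change (limma, SE 0.05, adjusted p = 0.0144). Its mean log2 difference was 0.19, 0.19 and 0.14 in experiments 1, 2 and 3, and the call was lost without experiment 2 (0.16, adjusted p = 0.263) and without the 168 hr arrays (0.16, adjusted p = 0.214). The change was small, and quantile normalization (0.13, adjusted p = 0.217) and a common median (0.12, adjusted p = 0.345) also ended the call.

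**Figure D4:**
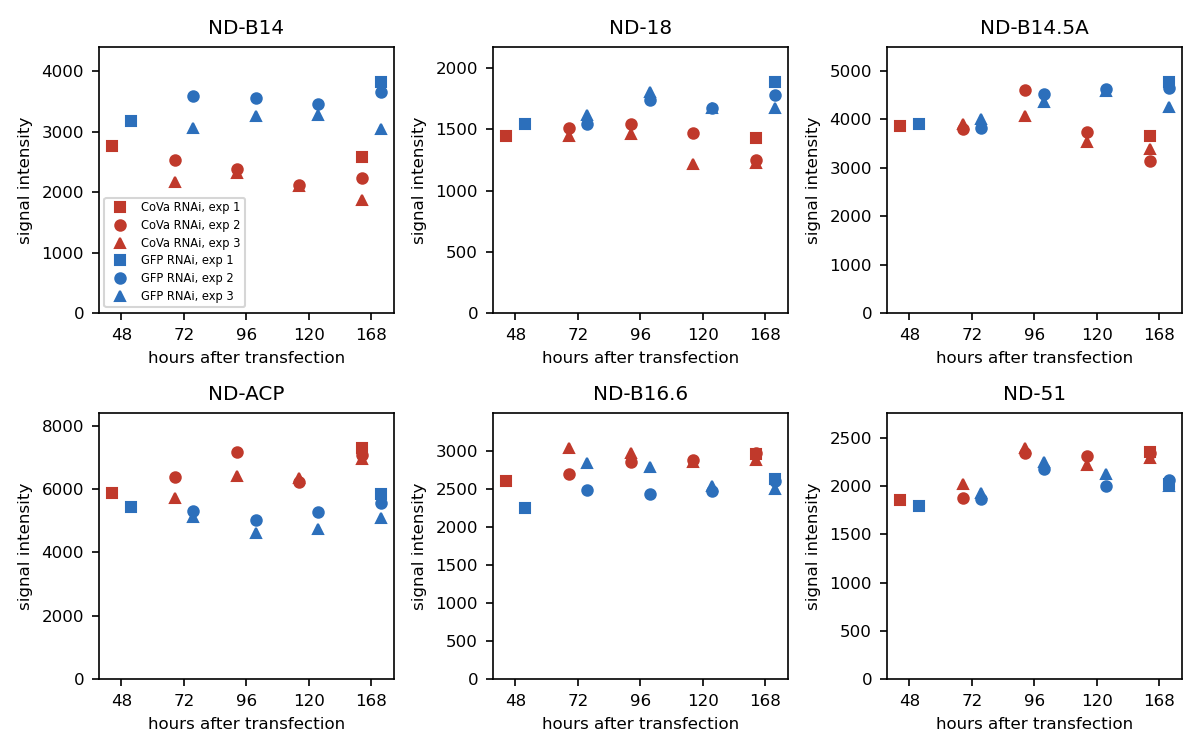
Signal intensity (y axis, linear, from 0) by hours after transfection (x axis, evenly spaced time points) for the 5 members past the threshold and the core subunit ND-51. Red is CoVa RNAi, blue is GFP RNAi, and squares, circles and triangles are experiments 1, 2 and 3. The CoVa arrays of ND-B14 lie between 1874 and 2755 and the GFP arrays between 3042 and 3825.

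Of the nuclear core subunits, ND-23, ND-24, ND-30 and ND-49 were not analysed, and the 3 measured did not pass in the fit without a block. Those measured were ND-75 and ND-51 of the N module and ND-20 of the Q module. ND-75 and ND-51 carry iron-sulfur clusters, and ND-51 also the flavin that takes electrons from NADH. ND-20 carries the last cluster before ubiquinone. ND-51 ran between 1855 and 2397 with a median of 2305 in CoVa RNAi, and between 1798 and 2249 with a median of 2012 in GFP RNAi. The arrays overlapped, but the CoVa array was higher in 10 of 10 pairs, with means of 2201 ± 206 in CoVa RNAi and 2022 ± 138 in GFP RNAi (SD, n = 10 each; log2 fold change 0.12, SE 0.06, adjusted p = 0.192 by limma). With the matched pairs as a block its adjusted p was 0.0209.

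ND-75, the counterpart of NDUFS1, varied more between arrays. It ran between 1129 and 2006 with a median of 1592 in CoVa RNAi, and between 1286 and 1877 with a median of 1583 in GFP RNAi (log2 fold change −0.05, SE 0.09, adjusted p = 0.783 by limma). Its pairs split by experiment, with a mean log2 difference of 0.10 in experiment 1, −0.03 in experiment 2 and −0.16 in experiment 3, where 4 of 4 pairs were lower. ND-20, the counterpart of NDUFS7, ran between 2187 and 2903 with a median of 2415 in CoVa RNAi, and between 2178 and 2610 with a median of 2334 in GFP RNAi (log2 fold change 0.07, SE 0.06, adjusted p = 0.45), and was higher in 8 of 10 pairs.

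The calls were few in each module. Of 5 tested N subunits 1 fell and 0 rose, with a median log2 fold change of −0.05. Of 5 tested Q subunits 2 fell and 0 rose, with a median of −0.08. Of 14 tested P subunits 0 fell and 2 rose, with a median of 0.03, beside the 11.3% of all probesets called higher and 6.47% called lower. With the matched pairs as a block, ND-51 of the N module, ND-39 of the Q module and ND-42 of the P module rose as well, and ND-B18 of the P module fell. ND-ACP is counted here in the P module only, although in mammals it also binds a subunit of the Q module. A difference between modules was not tested.

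The other accessory subunits each missed the threshold in the fit without a block. In the N module, ND-13A had a log2 fold change of −0.07 and ND-B17.2 of 0.08. In the Q module, ND-13B had −0.08 and ND-39, the counterpart of a subunit that binds NADPH, had 0.11. Among the proximal P subunits the values lay between −0.10 (ND-15) and 0.12 (ND-42), and among the distal P subunits, without ND-ACP, between −0.14 (ND-B18) and 0.07 (ND-MNLL). ND-B17 is read by 2 probesets whose fold changes differed in sign and did not pass, with 2981 ± 355 in CoVa RNAi and 2834 ± 229 in GFP RNAi for the stronger (log2 fold change 0.07, adjusted p = 0.566), and 2037 ± 145 in CoVa RNAi and 2045 ± 162 in GFP RNAi for the weaker (−0.0044, adjusted p = 0.977 by limma; SD, n = 10 each). ND-MLRQ, the member of strongest signal, had 10680 ± 724 in CoVa RNAi and 11295 ± 516 in GFP RNAi (SD, n = 10 each; log2 fold change −0.08, SE 0.05, adjusted p = 0.254 by limma).

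The pairing of arrays within a time course added calls without losing any. With the 10 matched pairs as a block, 5 members passed as higher and 4 as lower, against 25.8% of all tested probesets higher and 15.9% lower. All 5 members called without the block were among these 9, with the same sign. The added members were ND-39 (adjusted p = 0.0428), ND-42 (0.025) and ND-51 (0.0209), each with a positive fold change, and ND-B18 (0.046) with a negative one. ND-39 ran between 2902 and 4146 with a median of 3601 in CoVa RNAi, and between 2564 and 3788 with a median of 3276 in GFP RNAi. ND-42 ran between 2735 and 3529 with a median of 2942 in CoVa RNAi, and between 2470.0 and 3061 with a median of 2721 in GFP RNAi. ND-B18 ran between 3137 and 4713 with a median of 3726 in CoVa RNAi, and between 3541 and 4759 with a median of 3986 in GFP RNAi. The arrays of both conditions overlapped for all 3, and 9 of 10 pairs had the sign of the fold change. ND-51, ND-ACP and ND-B16.6 were higher in every pair, as were 9.65% of all tested probesets, and ND-18 and ND-B14 were lower in every pair, as were 5.95%.

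**Figure D5:**
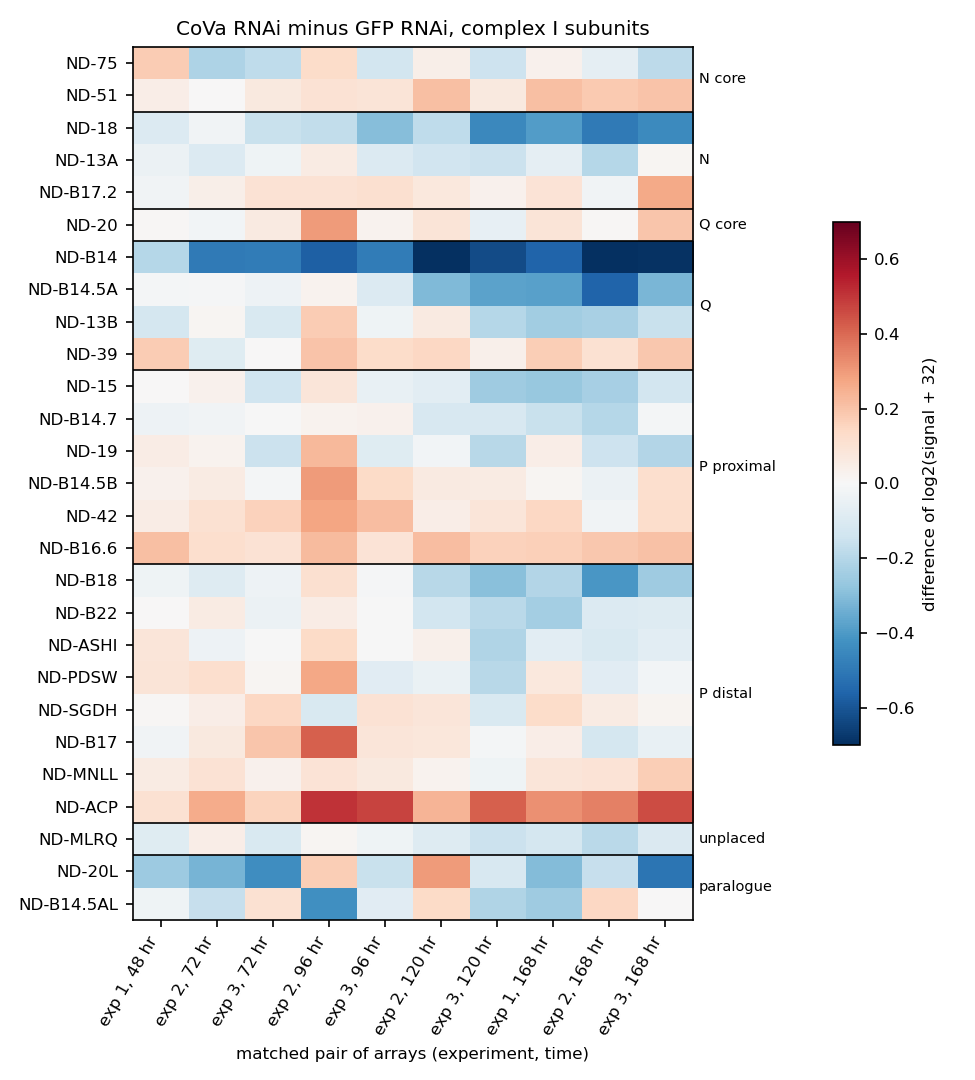
Log2 difference of CoVa RNAi minus GFP RNAi (colour, signal plus 32, red higher and blue lower in CoVa RNAi) for the 27 tested members (rows, by module) in the 10 matched pairs (columns, by time and experiment). ND-B14 is blue in all 10 columns and ND-ACP red in all 10, and in the experiment 2 pair at 96 hr 23 of the 27 members lie above 0.

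Taken time by time, the calls were most at 168 hr, which has 3 pairs where 72, 96 and 120 hr have 2. At 72 hr 0 members passed, against 0.0304% of all probesets, and only 1 member, ND-B14, had an unadjusted p under 0.05 by limma (log2 fold change −0.49, adjusted p = 1). At 96 hr ND-ACP rose (0.49, SE 0.11, adjusted p = 0.0442), against 1.39% of all probesets called higher. At 120 hr ND-B14 fell (−0.66, SE 0.16, adjusted p = 0.0438), against 0.73% called lower. The call at 96 hr was lost without experiment 1 (adjusted p = 0.0869 by limma). Leaving out experiment 2 or 3 left 1 array per condition at 96 and 120 hr, so those fits cannot decide either call. The log2 difference of ND-ACP at 96 hr was 0.51 in experiment 2 and 0.47 in experiment 3. That of ND-B14 at 120 hr was −0.70 in experiment 2 and −0.63 in experiment 3. With the matched pairs as a block, ND-ACP rose and ND-B14 fell at 96 hr (adjusted p = 0.0126 and 0.00748), against 5.45% of all probesets higher and 1.19% lower. At 120 hr, in the same fit, ND-ACP rose (adjusted p = 0.0327) and ND-B14 (0.00183) and ND-B14.5A (0.0327) fell, against 8.65% higher and 5.75% lower.

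At 168 hr, where the knockdown was deepest in each time course, 1 member rose and 3 fell, against 9.14% of all probesets called higher and 7.44% called lower. ND-ACP rose (0.38, SE 0.09, adjusted p = 0.0111). ND-B14 (−0.65, SE 0.13, adjusted p = 0.00436), ND-18 (−0.44, SE 0.09, adjusted p = 0.0063) and ND-B14.5A (−0.42, SE 0.08, adjusted p = 0.00493) fell. Without experiment 2 the 4 calls were lost, as were those of all probesets. That fit left 2 arrays per condition at 168 hr and 1 at each other time, so it cannot decide the 4 calls. The log2 fold changes were then 0.39 for ND-ACP, −0.63 for ND-B14, −0.42 for ND-18 and −0.35 for ND-B14.5A. With every array scaled to a common median, in which the median of all probesets shifted by −0.11, the calls were lost too (adjusted p between 0.0811 and 0.587), at 0.25 for ND-ACP, −0.77 for ND-B14, −0.56 for ND-18 and −0.54 for ND-B14.5A. Experiment 2 is the time course in which CoVa stood at 804 in CoVa RNAi and 8962 in GFP RNAi at that time. With the matched pairs as a block 3 members rose and 6 fell at 168 hr, against 24.3% of all probesets higher and 18.7% lower. The added members were ND-51 (adjusted p = 0.0261) and ND-B16.6 (0.0302), higher, and ND-15 (0.0435), ND-B18 (0.00975) and the paralogue ND-20L (0.0416), lower. The call of ND-20L is limited by the filter, as given below with the paralogues. The median over the members was −0.07, against 0.06 for all probesets.

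The differences of ND-18 and ND-B14.5A fell with time. A straight line through the 10 pair differences fell by 0.08 per 24 hr for ND-18 (SE 0.02, adjusted p = 0.0191 by limma) and by 0.10 per 24 hr for ND-B14.5A (SE 0.02, adjusted p = 0.00987), and these 2 members stand beside 11.4% of all probesets with a falling slope. For ND-B14 the slope was −0.06 per 24 hr (SE 0.02, adjusted p = 0.0517), and with the experiment as a block it passed (adjusted p = 0.0298), as did ND-18 and ND-B14.5A, against 11.9% of all probesets lower. A difference between the slopes of these 3 genes was not tested. The fold change of ND-B14.5A was −0.02 at 72 hr and −0.04 at 96 hr. It was −0.34 at 120 hr and −0.42 at 168 hr. Without the 168 hr arrays neither slope passed (adjusted p = 0.398 for ND-18 and 0.273 for ND-B14.5A), and without experiment 2 neither did (0.169 for ND-18 and 0.134 for ND-B14.5A). The slope of ND-18 also missed the threshold without experiment 1 (−0.09, adjusted p = 0.057), without experiment 3 (−0.08, adjusted p = 0.0593) and with no filter (−0.08, adjusted p = 0.0665).

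The difference between 168 and 72 hr, tested directly, gave 0 members, against 1.67% of all probesets, with 2 members at an unadjusted p under 0.05 by limma. These were ND-18 (−0.35, adjusted p = 0.365) and ND-B14.5A (−0.40, adjusted p = 0.211).

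Within a condition, no slope of a member passed without a block. With the experiment as a block, ND-51 (0.06 per 24 hr, adjusted p = 0.0472) and ND-ACP (0.05 per 24 hr, adjusted p = 0.0261) rose with time within CoVa RNAi, against 12.9% of all probesets. ND-B14.5A had a slope of −0.05 per 24 hr within CoVa RNAi (adjusted p = 0.138) and of 0.05 within GFP RNAi (adjusted p = 0.86), and ND-18 of −0.04 within CoVa RNAi (adjusted p = 0.182) and of 0.04 within GFP RNAi (adjusted p = 0.86). Within CoVa RNAi 0 members passed, against 12.3% of all probesets, with 4 at an unadjusted p under 0.05 by limma, and within GFP RNAi 0 passed, against 0.0203%, with 1 at an unadjusted p under 0.05. The slope was above 0 for 13 of 27 members within CoVa RNAi and for 24 of 27 within GFP RNAi, against 59.6% and 56.7% of all probesets.

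No member passed a test of the difference between experiment 2, where the measured knockdown was deepest, and experiment 3, where it was shallowest. Experiment 2 minus experiment 3 gave 0 calls among members and 0% among all probesets, and 1 member, the paralogue ND-20L, had an unadjusted p under 0.05 by limma. The median of this contrast over the members was 0.02. Beyond ND-B14, the differences were −0.04 for ND-ACP (SE 0.08), 0.12 for ND-18 (SE 0.08), −0.01 for ND-B14.5A (SE 0.09) and 0.05 for ND-B16.6 (SE 0.07).

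The 5 paralogues, which carry the symbol of a subunit with the suffix L, lay near background. ND-20L had 80.9 ± 16.9 in CoVa RNAi and 97.8 ± 31.1 in GFP RNAi, and ND-B14.5AL had 92.9 ± 24.6 in CoVa RNAi and 99.3 ± 22.4 in GFP RNAi (SD, n = 10 each). Both passed the filter through a few arrays above 100 and neither passed over all arrays (adjusted p = 0.375 and 0.739). With the matched pairs as a block ND-20L was among the members called lower at 168 hr, at signals near background. It reached 100 on 6 arrays, with a median of 79.2 and a highest signal of 110 in CoVa RNAi. In GFP RNAi these were 97.6 and 161. The filter may thus have let it in through the control arrays, so this call cannot decide whether it fell. ND-24L, ND-51L1 and ND-51L2 never reached 100, and ND-24L had 39.0 ± 16.4 in CoVa RNAi and 25.1 ± 10.6 in GFP RNAi, higher in 9 of 10 pairs at signals where background weighs most. The subunits ND-B8 and ND-B12 did not reach 100 on any array either, with means of 30.8 and 72.1 in CoVa RNAi and of 31.8 and 74.6 in GFP RNAi. A weak probeset does not show that the transcript is absent.

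Among proteins that help to assemble complex I but are not part of it, a list from general knowledge held 9 measured genes, of which 8 were tested, 1 rose and 0 fell, beside the 11.3% of all probesets called higher. The gene that rose was CG8067, to which the annotation used here gives no further name, with signals between 380 and 500 in CoVa RNAi and between 330 and 389 in GFP RNAi, a mean of 452 ± 39.5 in CoVa RNAi and 355 ± 19.5 in GFP RNAi (SD, n = 10 each). It was higher in 10 of 10 pairs. Its log2 fold change was 0.32 over all arrays (limma, SE 0.05, adjusted p = 0.000331), 0.39 at 120 hr (adjusted p = 0.0471) and 0.48 at 168 hr (adjusted p = 0.00127). At 168 hr CG5569, which RefSeq also names dNDUFAF3, rose as well (0.22, adjusted p = 0.0455 by limma). Among all probesets, 229 of 9858 were called higher at 120 hr and 9.14% at 168 hr. The median over the 8 was −0.01.

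For the other complexes of the chain and the ATP synthase, CoVa left out, 32 of 45 measured genes were tested, 2 rose and 4 fell, with a median of −0.04, beside 11.3% of all probesets called higher and 6.47% lower. Of other enzymes that feed electrons to ubiquinone, the dihydroorotate dehydrogenase Dhod and the proline dehydrogenase slgA were tested and neither passed (log2 fold changes between 0.00 and 0.09). NP15.6, the counterpart of NDUFB11 whose symbol falls outside the rule for members, had 4267 ± 368 in CoVa RNAi and 4384 ± 268 in GFP RNAi (SD, n = 10 each; log2 fold change −0.04). Between the single untransfected array and the GFP array of the same experiment and time, the median log2 difference over the 27 members was 0.02. Single members ran between −0.48 (ND-20L) and 0.18 (ND-B14.5AL), both paralogues near background.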

How the data were processed

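Total RNA of S2 cells was hybridised to Affymetrix Genome 2 arrays for the fly. The authors scanned them with the GeneChip Operating System and computed signal intensities in dChip, with the median-intensity array as the baseline. The submitters' processing notes name MAS5. The deposited intensity values are linear. Here the 183 control probesets were left out of 18952, 32 was added before log2, and the test ran on 9858 probesets with a signal of 100 or more on at least 3 of 20 arrays, in limma 3.58.1 (R 4.3.3) with Benjamini-Hochberg adjustment over all of them at 0.05. Array medians lay between 67.5 and 94.4. The fits took all arrays without a block, 1 mean per condition and time, a line through the pair differences, and experiment 2 minus 3. Scripts were tested on simulated data. Arrays of the same experiment and time deviated together (correlations between 0.582 and 0.956), so the numbers, which mark the time courses, pair them. Nothing says whether RNA came from separate cultures at each time, so p-values measure the spread between these arrays.

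The members and lists were chosen with earlier results of these data known. Named with array values are the measured core subunits and the members past the threshold over all arrays, at any time or in the trend. Members whose probesets disagree in sign and the paralogues are named as well. ND-39, ND-42 and ND-B18 were added for their calls with the pairs as a block, and ND-B22, ND-MLRQ, ND-B8, ND-B12 and all probesets of ND-ACP after their values were seen. Alternatives changed the normalization, the added value, the filter, the probeset rule, the variance model, the block, the times and the experiments, and applied the methods' t-test. Of the tested members, 6 are read by probesets with the suffix _s_at, whose probes can match transcripts of more than 1 gene. None of these passed over all arrays. At 168 hr 1 of them, ND-15, fell with the pairs as a block (adjusted p = 0.0435 by limma) and with the experiment as a block (0.0327). The files name no genome build, so no coordinates are given. Python 3.11.15 with pandas 2.3.3 and numpy 2.4.6 was used.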

Additional observations from a re-analysis of the deposited data

Results flagged for a closer look

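Within a condition, 3 members had an array far above the other 9. ND-15 had 4248 in CoVa RNAi of experiment 2 at 96 hr, against 3732 on the next array. ND-B17 had 3815 on the same array, against 3163 on the next. ND-PDSW had 2505 in GFP RNAi of experiment 1 at 168 hr, against 2153 on the next. Chance flags about 1 in 20 groups, and 27 members in 2 conditions were looked at. The same 2 arrays were the highest of their condition for 13 of the 27 members each. The part of the array in these values was not tested. Without the experiment 2 pair at 96 hr, a choice made after seeing the data, 2 members rose and 3 fell as before, with a median log2 fold change of −0.04.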

How the results depend on the processing

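ND-B14 passed over all arrays in 16 of 16 alternatives, with adjusted p between 3.06e-06 and 0.0241. ND-ACP passed in 14, ND-18 in 14, ND-B16.6 in 12 and ND-B14.5A in 10 of 16, and all 5 kept their sign. The count of members higher over all arrays, 2, was 1 with quantile normalization, 0 with a common median, 5 with the matched pairs as a block, 1 without the 168 hr arrays and 4 by the methods' t-test at an unadjusted p under 0.05 (with 4 lower, against 30.1% of all probesets; 2 higher and 3 lower after Benjamini-Hochberg, against 1692 of 9858 probesets). The count lower, 3, was 1 without the 168 hr arrays. Leaving out 1 experiment each gave 0 to 2 higher and 1 to 2 lower, and medians between −0.0516 and 0.0309, the higher without experiment 3.

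At 96 hr the 1 call became 0 with quantile normalization, a common median, no filter or the mean of probesets, 2 with either block, and 0 without experiment 1. At 120 hr the 1 call became 0 with a common median or no filter, 4 with the experiment as a block and 3 with the pairs as a block. Without experiment 1 it stayed 1. Leaving out experiment 2 or 3 left 1 array per condition at 96 and 120 hr, so no count is given. At 168 hr the 4 calls became 0 with a common median, 7 with the experiment as a block and 9 with the pairs as a block. Without experiment 1 they stayed 4. With experiment 2 or 3 left out, 2 arrays per condition remained at 168 hr and 1 at each other time, so no count is given. The difference between 168 and 72 hr had 1 call with the pairs as a block. The 2 trend calls became 4 with a common median, 3 with quantile normalization, an added value of 100, the stricter filter or the experiment as a block, 1 with no filter, 0 without the 168 hr arrays, and 0 to 1 when experiments were left out. Within CoVa RNAi the slopes of ND-51 and ND-ACP passed with the experiment as a block, 2 calls. The causes were not tested; fewer arrays enter when times or experiments are left out.

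The sign of uncalled members over all arrays turned for ND-SGDH (−0.0061 with quantile normalization, −0.0156 with a common median), ND-PDSW (−0.0336 and −0.0381 with those, −0.0136 without the experiment 2 pair at 96 hr, −0.0019 without experiment 1, −0.0194 without experiment 2), ND-ASHI (0.0002 without the 168 hr arrays, 0.0068 without experiment 3), ND-19 (0.0309) and ND-75 (0.0162), both without experiment 3. Over the experiments left out in turn, the values ran between −0.0194 and 0.0708 for ND-PDSW, −0.0470 and 0.0068 for ND-ASHI, −0.0900 and 0.0309 for ND-19 and −0.0926 and 0.0162 for ND-75. The share of higher calls among all probesets was 87.8% with a common median against 76.1% at 120 hr, 88.9% against 63.0% for 168 minus 72 hr, and 33.6% against 50.7% for the trend. Within CoVa RNAi it was 38.8% with quantile normalization and 45.9% with a common median, against 56.7%. A common median shifted the median of all probesets by −0.11 at 168 hr and by −0.14 for 168 minus 72 hr. Members near or under 100 are limited by background, and each time point rests on 2 or 3 pairs.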
